A study of Sus scrofa with 16 samples.

Results

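The transcripts examined were the 7 messenger RNAs of complex I that are encoded by the mitochondrial genome, ND1 (ENSSSCT00000019660), ND2 (ENSSSCT00000019664), ND3 (ENSSSCT00000019679), ND4L (ENSSSCT00000019681), ND4 (ENSSSCT00000019682), ND5 (ENSSSCT00000019686) and ND6 (ENSSSCT00000019687). They were chosen by transcript ID and checked by length, and made up 7 of the 27370 annotated transcripts measured in pig ovary. The deposited lengths were 957 nt for ND1, 1044 nt for ND2, 346 nt for ND3, 297 nt for ND4L, 1378 nt for ND4, 1821 nt for ND5 and 528 nt for ND6. Of the 7 lengths, 5 equalled those of the pig mitochondrial genes in RefSeq (Sscrofa11.1), and ND1 and ND2 were 2 nt longer.

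Complex I (NADH:ubiquinone oxidoreductase) takes electrons from NADH, passes them to ubiquinone and pumps protons across the inner mitochondrial membrane. Most of its subunits are encoded in the nucleus, whereas the ND subunits form the hydrophobic core of its membrane arm and are made inside the mitochondrion. The mitochondrial genome is transcribed into long precursors from both strands, and the mRNAs are cut out of them. ND6 is the only mRNA of the light strand, and the other ND mRNAs belong to the heavy strand. In the ovary, luteal cells are rich in mitochondria, where the first step of steroid synthesis takes place.

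Ovaries of 16 unrelated Canadian Large White sows were compared. The luteal groups, sampled on day 14 of the cycle, were LH (high fecundity, 4 sows) and LL (low fecundity, 4 sows). The follicular groups, sampled on day 20, were FH (high fecundity, 4 sows) and FL (low fecundity, 4 sows). Fecundity was defined by the total number of piglets born, and the animals were neither treated nor genetically modified. According to the study's phenotype records, the high-fecundity sows of the luteal phase had all had more litters than the low-fecundity ones, so litter number and fecundity cannot be told apart there. Each library came from whole ovarian tissue of 1 sow. In such bulk tissue, fewer cells of a type and less RNA per cell cannot be told apart.

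Levels are given in FPKM, in which the fragments of a transcript are divided by its length, here less a fragment-length term, and by the total of its library. The FPKM steps corresponded to 166000 to 304000 counted fragments per library. The study reports far more clean reads than that, and the reason for this gap was not tested. By the estimate from the FPKM steps, ND1 rested on 183 to 989 fragments per library, ND2 on 154 to 1238, ND4 on 290 to 2345, ND5 on 768 to 5537 and ND6 on 2726 to 20916. No such estimate was made for ND3 and ND4L. Their lengths exceeded the fragment-length term of the libraries by only 77 to 138 nt for ND3 and 28 to 89 nt for ND4L, so a small error in that term changes their FPKM more than that of the longer mRNAs. The LH libraries differed most among themselves: LH1 lay among the highest and LH2 among the lowest of all 16 libraries for the 6 heavy-strand members. Counts of called members that rest on LH are therefore given with and without these libraries, a choice made after the data were seen.

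All 7 members were among the most abundant transcripts of the ovary. ND6 ranked first of all transcripts in 13 of 16 libraries and no lower than rank 2. ND5 ranged from rank 3 to rank 28, ND3 from 3 to 51, ND4L from 7 to 45, ND4 from 9 to 70, ND1 from 10 to 64 and ND2 from 12 to 89. Together ND1, ND2, ND4, ND5 and ND6 took 1.62% to 14.1% of the estimated fragments of a library.

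ND1, which lies where the membrane arm meets the ubiquinone site, had FPKM values of 8008, 1059, 2469 and 1507 in LH1 to LH4 and 3346, 6440, 5430 and 6083 in LL1 to LL4. On day 20 its values were 3855, 2125, 1583 and 1280 in FH1 to FH4 and 1510, 1421, 2243 and 2090 in FL1 to FL4. All 4 LL libraries were above all 4 FL libraries, whereas LH spanned the range of the other groups.

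ND2, one of the antiporter-like subunits of the proton-pumping arm, reached 7130, 631, 2759 and 2297 FPKM in LH1 to LH4 and 5341, 7694, 5667 and 5908 in LL1 to LL4. It fell within 3891, 1378, 1553 and 956 in FH1 to FH4 and 1313, 1363, 1212 and 1822 in FL1 to FL4. Of the LH libraries only LH1 lay within the LL range, and LH2 held the lowest value of all 16 libraries.

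ND3, a small subunit with a loop at the ubiquinone site, had 15042, 1500, 10954 and 7561 FPKM in LH1 to LH4 and 9454, 21197, 14744 and 14050 in LL1 to LL4. The follicular values were 8861, 1305, 4088 and 1418 in FH1 to FH4 and 2237, 2691, 2718 and 3095 in FL1 to FL4. FH2 was the lowest library and LL2 the highest, and the lowest LL library was above every follicular library.

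ND4L, the shortest member, had 11478, 1492, 7048 and 4162 FPKM in LH1 to LH4 and 8582, 10978, 10997 and 9033 in LL1 to LL4. In the follicular groups it had 8033, 2099, 3013 and 1783 in FH1 to FH4 and 3380, 3664, 2174 and 3125 in FL1 to FL4. Within LL the highest value was 1.28 times the lowest, and within LH 7.69 times.

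ND4, a second antiporter-like subunit, is encoded next to ND4L on a shared mRNA. It had 7786, 893, 4115 and 2847 FPKM in LH1 to LH4 and 5355, 10224, 5537 and 8679 in LL1 to LL4. On day 20 it had 3839, 2016, 2265 and 1272 in FH1 to FH4 and 1571, 1874, 1900 and 2447 in FL1 to FL4. ND4 stood below ND4L in all 16 libraries, at 0.465 to 0.961 of its FPKM. Since both are cut from the same RNA and their reading frames overlap, fragments at the junction could be counted for either. The length of ND4L exceeded the fragment-length term by 28 to 89 nt, and that of ND4 by 1109 to 1170 nt. What either point contributes to the order of ND4 and ND4L was not tested.

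ND5, the antiporter-like subunit at the far end of the membrane arm, had 18370, 2151, 10707 and 6051 FPKM in LH1 to LH4 and 13688, 17293, 14636 and 12350 in LL1 to LL4. Its follicular values were 8727, 2751, 5096 and 2429 in FH1 to FH4 and 4104, 4343, 3179 and 4947 in FL1 to FL4. The lowest LL library was above the highest follicular library, FH1, and LH1 was the highest of all 16.

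ND6, which sits near ND4L and ND3 in the membrane arm, had 116796, 32444, 126084 and 122629 FPKM in LH1 to LH4 and 359912, 161035, 288165 and 138319 in LL1 to LL4. Follicular ND6 stood at 104509, 44973, 74963 and 47155 in FH1 to FH4, and at 105147, 96514, 78872 and 109496 in FL1 to FL4. ND6 was the only member for which LL overlapped with no other group. LH2 was the lowest library, and the other 3 LH libraries lay close together, above every follicular library.

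**Figure D1:**
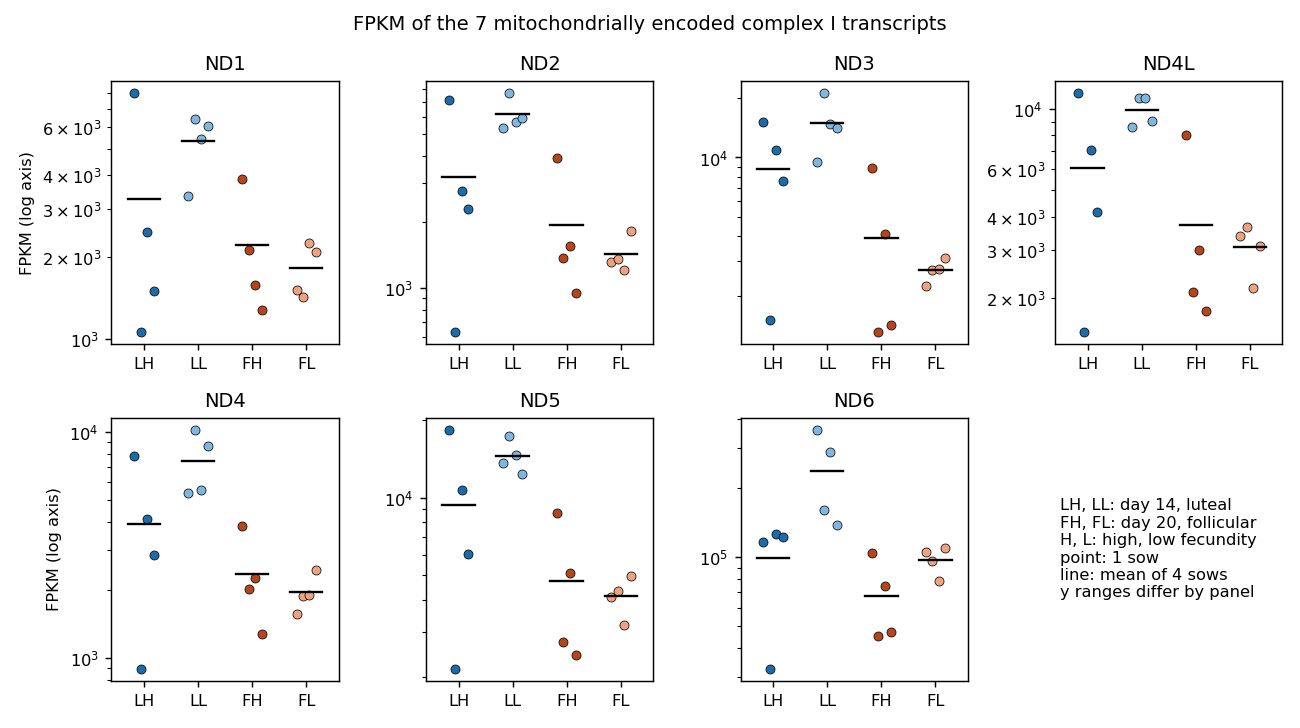
FPKM of each complex I transcript (log axis) in the 4 groups; each point is 1 sow and each line the mean of 4 sows. The 4 LL points lie above the 4 FL points for all 7 members, and the LH points spread over a range of 3.89-fold (ND6) to 11.3-fold (ND2).

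As FPKM is a level per length, less the fragment-length term, the members were ordered within a library. The places of ND3 and ND4L depend most on that term, as their lengths exceed it by little. The mean over the 16 libraries was 125438 FPKM for ND6, 8176 for ND5, 7557 for ND3, 5690 for ND4L, 3914 for ND4, 3182 for ND2 and 3153 for ND1. ND6 was above ND5, and ND4L above ND4, in 16 of 16 libraries. The other neighbours were not ordered the same way in every library. ND4 was above ND2 in 14 libraries, ND3 above ND4L in 11, ND5 above ND3 in 10, and ND2 above ND1 in only 6. In LL the means were 14861 ± 4833 FPKM for ND3 and 14492 ± 2090 for ND5 (SD, n = 4), a difference smaller than the spread of either. In FL the order was the same as over all libraries except that ND4L stood above ND3 and ND1 above ND2. ND5 came there to 4143 ± 734 FPKM, ND4L to 3086 ± 646, ND3 to 2685 ± 351, ND4 to 1948 ± 365, ND1 to 1816 ± 411 and ND2 to 1428 ± 271 (SD, n = 4).

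The coefficient of variation of the heavy-strand members was larger among the high-fecundity sows than among the low-fecundity sows of the same phase. It was 65.4% (ND3) to 98.7% (ND1) in LH against 12.9% (ND4L) to 32.5% (ND3) in LL, and 46.0% (ND4) to 90.3% (ND3) in FH against 13.1% (ND3) to 22.6% (ND1) in FL. For ND6 it was 45.1% and 44.4% in LH and LL, and 41.2% and 13.9% in FH and FL. Single sows changed these values. Without FH1 the heavy-strand members had 23.7% (ND2) to 69.4% (ND3) in FH, and ND1 had 25.7%. Without LH1 they had 42.9% (ND1) to 71.8% (ND3) in LH, and without LH2 33.5% (ND3) to 87.8% (ND1). For ND6 in LH it was 3.85% without LH2. With 4 sows per group these spreads were not tested against each other.

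The first question was whether the members differed between the phases. In low-fecundity sows all 7 were lower on day 20 than on day 14, with 2.27-fold (ND6) to 5.35-fold (ND3) lower levels on the log2(FPKM + 1) scale, and for each member the 4 FL libraries lay below the 4 LL libraries. Mean ND2 went from 6153 ± 1054 to 1428 ± 271 FPKM and mean ND3 from 14861 ± 4833 to 2685 ± 351 (SD, n = 4). Mean ND6 went from 236858 ± 105252 to 97507 ± 13545 FPKM.

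In the limma fit of FL vs. LL, the log2 fold change of ND3 was -2.42 ± 0.57 (SE; adjusted p = 0.0403), that of ND2 was -2.11 ± 0.49 (adjusted p = 0.0377) and that of ND4 was -1.90 ± 0.45 (adjusted p = 0.0407). The other 4 members did not reach an adjusted p under 0.05, with -1.81 ± 0.46 for ND5 (adjusted p = 0.0511), -1.70 ± 0.47 for ND4L (0.0718), -1.54 ± 0.45 for ND1 (0.0881) and -1.18 ± 0.37 for ND6 (0.1). By the threshold used in the study, which needs a log2 fold change of at least 1 in size and an unadjusted p below 0.05, 7 of 7 members were called lower, against 1.97% of the 11027 transcripts tested. With an adjusted p under 0.05 it was 3 of 7, against 0.381% of all transcripts. No overlap between the groups, in the lower direction, was seen for 7 of 7 members and 1.69% of all transcripts. The median member changed by -1.81, and the median of all transcripts tested by 0.76.

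The count of 7 was 6 without LL1 and 7 without any other single library. The 3 adjusted calls were less firm: they were 0 when LL2, LL3, LL4 or any 1 FL library was left out, 1 without LL1, 5 without FH1, 6 without LH1, 7 without LH2, and 7 without LH1 and LH2 together.

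In high-fecundity sows fewer members were called, and whether the difference between phases depended on fecundity was tested separately as an interaction. FH vs. LH gave negative log2 fold changes for 7 of 7 members, from -0.23 ± 0.45 (ND1) to -1.20 ± 0.57 (ND3). ND3 was the 1 member called (unadjusted p = 0.0494, adjusted p = 0.678), against 1.1% of all transcripts. The groups overlapped for every member, while 0.363% of all transcripts were lower in FH without overlap. Mean ND3 was 8764 ± 5728 FPKM in LH and 3918 ± 3537 in FH, and mean ND5 was 9320 ± 6974 in LH and 4751 ± 2905 in FH (SD, n = 4). That call was lost in 13 of the 16 fits that left out 1 library, LH1 among them. Without FH1 3 members were called, without LH2 5, and without LH1 and LH2 together 1.

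Averaged over fecundity, the follicular level was lower than the luteal one for 7 of 7 members. ND3 fell by 1.81 ± 0.41 on the log2 scale (adjusted p = 0.0406), ND5 by 1.29 ± 0.32 (0.0565), ND2 by 1.29 ± 0.35 (0.0776), ND4 by 1.18 ± 0.32 (0.0776) and ND4L by 1.16 ± 0.33 (0.0889), and these 5 were called. ND1, at -0.88 ± 0.32, and ND6, at -0.82 ± 0.26, had unadjusted p-values of 0.0115 and 0.00483 but stayed under the fold limit. Of all transcripts, 1.47% were called lower, and 0.172% with an adjusted p under 0.05, which 1 member reached. No member reached it in 12 of the 16 fits that left out 1 library, 1 did without LL1 or FH3, 5 without FH1 and 7 without LH2. By the study's threshold, without LH1 3 members were called, without LH2 all 7, and without both 6.

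The interaction was the FL vs. LL difference minus the FH vs. LH difference. It was negative for 7 of 7 members, from -0.73 ± 0.52 (ND6) to -1.65 ± 0.70 (ND2). ND2 (unadjusted p = 0.0280) and ND4 (-1.43 ± 0.64, unadjusted p = 0.0365) were called, against 1.88% of all transcripts. No member reached an adjusted p of 0.05, the smallest being 0.606. The count was 5 without LH1, 0 without LH2, LL2 or FH1, 1 without LH4, LL4, FL1, FL2 or FL3, and 3 without LH1 and LH2 together.

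**Figure D2:**
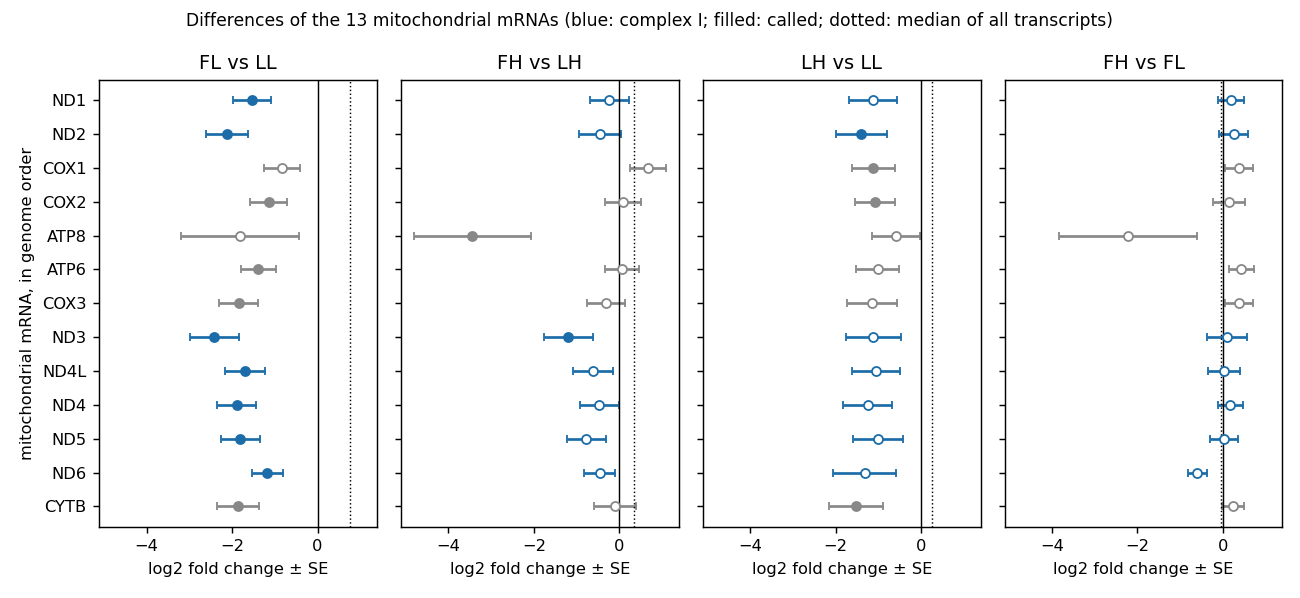
Log2 fold changes with standard errors for the 13 mitochondrial mRNAs in genome order, in 4 comparisons; blue marks complex I, filled points were called, and the dotted line is the median of all transcripts tested. All 7 complex I points are filled and left of 0 in FL vs. LL, whereas in FH vs. FL ND6 is the only one of them left of 0.

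The second question was the one the study asked within each phase, high against low fecundity. LH vs. LL uses the same LL libraries as FL vs. LL and the same LH libraries as FH vs. LH, so these comparisons are not independent of each other. On day 14 all 7 members had lower mean values in LH, by log2 fold changes between -1.02 ± 0.59 (ND5) and -1.40 ± 0.59 (ND2). ND2 was the 1 member called (unadjusted p = 0.0355, adjusted p = 0.572), against 2.31% of the 5015 transcripts tested. Adjusted p-values of the 7 members lay between 0.572 and 0.640. The size of these differences rested on LH1 and LH2. Without LH2 the log2 fold changes lay between -0.41 (ND3) and -0.85 (ND6), with ND5 at -0.44, ND4L at -0.50 and ND2 at -0.77. Without LH1 they lay between -1.46 (ND6) and -1.94 (ND2), and without both between -0.65 (ND3) and -1.42 (ND1).

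ND6 was the 1 member whose LH and LL libraries did not overlap, the highest LH value being 126084 FPKM and the lowest LL value 138319; of all transcripts, 1.4% were lower in LH without overlap. Its log2 fold change was -1.33 ± 0.74 (unadjusted p = 0.0971). For the 6 heavy-strand members LH1 lay within or above the LL range while LH2 lay far below it. Without LH1 6 members were called, without any 1 of the other 7 libraries 0, and without LH1 and LH2 together 3. The median of all transcripts was 0.26 in this comparison, against -1.12 for the members.

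On day 20 no difference between FH and FL beyond the spread between sows was detected for the heavy-strand members. The log2 fold changes of the 6 heavy-strand members lay between 0.02 ± 0.33 (ND5) and 0.25 ± 0.35 (ND2), with adjusted p-values of 0.990 or more. Mean ND5 was 4751 ± 2905 FPKM in FH and 4143 ± 734 in FL, and mean ND1 was 2211 ± 1151 and 1816 ± 411 (SD, n = 4). FH1 had the highest value of the 8 follicular libraries for each heavy-strand member, and without it all 6 values turned negative.

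ND6 had 67900 ± 27965 FPKM in FH and 97507 ± 13545 in FL (SD, n = 4), with a log2 fold change of -0.60 ± 0.23. Its unadjusted p was 0.0205 and its adjusted p 0.914, and FH1 lay within the FL range. None of the 7 members was called in limma, against 2.47% of the 8296 transcripts called lower. ND6 was the 1 member with an unadjusted p under 0.05, which 396 of the 8296 transcripts had in either direction. Of all transcripts 1.34%, and no member, were lower in FH without overlap.

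The members were next set against the 6 other mRNAs of the mitochondrial genome, which encode subunits of cytochrome c oxidase (COX1, COX2 and COX3), of ATP synthase (ATP6 and ATP8) and of complex III (CYTB). In FL vs. LL all 6 had negative log2 fold changes and 4 were called, namely CYTB (-1.86 ± 0.49), COX3 (-1.85 ± 0.45), ATP6 (-1.38 ± 0.40) and COX2 (-1.15 ± 0.43). COX1 had -0.82 ± 0.42 (unadjusted p = 0.0656) and ATP8 -1.82 ± 1.38 (unadjusted p = 0.201). In FH vs. LH 3 of the 6 were positive, COX1 at 0.68 ± 0.42, COX2 at 0.08 ± 0.43 and ATP6 at 0.07 ± 0.40. The other 3 were negative, COX3 at -0.31 ± 0.45, CYTB at -0.10 ± 0.49 and ATP8 at -3.44 ± 1.38, and ATP8 was called (unadjusted p = 0.0210, adjusted p = 0.557). ATP8 is the shortest of the 13 and was listed at 0 in FH2. All 7 complex I members were negative there, although without LH1 ND1 stood at 0.35 and ND2 at 0.08. In LH vs. LL all 6 were negative and 3 were called, against 1 of the 7 members. These 3 were CYTB (-1.52 ± 0.63), COX1 (-1.12 ± 0.51) and COX2 (-1.08 ± 0.47). In the interaction 5 of the 6 were negative and 4 were called, against 2 of the 7 members. These 4 were CYTB (-1.77 ± 0.70), COX3 (-1.53 ± 0.64), COX1 (-1.50 ± 0.60) and ATP6 (-1.45 ± 0.57). The smallest limma adjusted p among the 6 was 0.562 in LH vs. LL and 0.582 in the interaction. The difference between the members and these other mRNAs was not tested.

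A ratio within a library does not depend on how the library was scaled. The geometric mean of the 6 heavy-strand complex I members, divided by that of COX1, COX2, ATP6, COX3 and CYTB, was 0.931 ± 0.117 in FH and 1.06 ± 0.10 in FL, against 1.5 ± 0.11 in LL and 1.54 ± 0.33 in LH (SD, n = 4). All 4 LL libraries, from 1.37 to 1.61, were above all 8 follicular libraries, which lay between 0.806 and 1.19. In LH the ratio ran from 1.09 (LH2) to 1.82 (LH4). Without the short ND3 and ND4L it was 1.17 to 1.41 in LL, 0.97 to 1.44 in LH, 0.772 to 0.915 in FH and 0.827 to 1.02 in FL. This ratio was chosen after the values were seen and is given as a description. For a single pair, ND5 over COX1, it was 2.31 to 4.43 in LL and 1.18 to 2.11 in FL, with 1.6 to 5.92 in LH and 0.891 to 2.05 in FH. COX1 had the smallest fall of these other mRNAs in FL vs. LL (log2 fold change -0.82). COX3 (-1.85) and CYTB (-1.86) fell about as much as the median member (-1.81), so how far such a ratio differs depends on the pair chosen.

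ND6 stood apart in level. Its FPKM was 11 to 52.3 times the geometric mean of the 6 heavy-strand members of the same library. This ratio was 41.8 ± 5.27 in FL and 25.7 ± 6.07 in FH, and on day 14 it was 28.9 ± 17.9 in LL and 24.2 ± 9.97 in LH (SD, n = 4). On the log2 scale the group means were 5.38 ± 0.18, 4.65 ± 0.36, 4.64 ± 0.90 and 4.48 ± 0.72 in the same order. Within LL the ratios were 52.3 (LL1), 33.5 (LL3), 15.6 (LL4) and 14.3 (LL2). All FL libraries, at 36.8 or more, were above all FH libraries, at 32.4 or less.

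The libraries were made with a kit that keeps strand, but the strand setting used in counting was not given in the sources used here. Without it, light-strand ND6 RNA and heavy-strand RNA read through the same stretch, next to ND5, cannot be told apart, and its part in the ND6 level was not tested. Pieces of mitochondrial DNA also lie in mammalian nuclear genomes, and how reads matching both places were assigned is not given either.

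**Figure D3:**
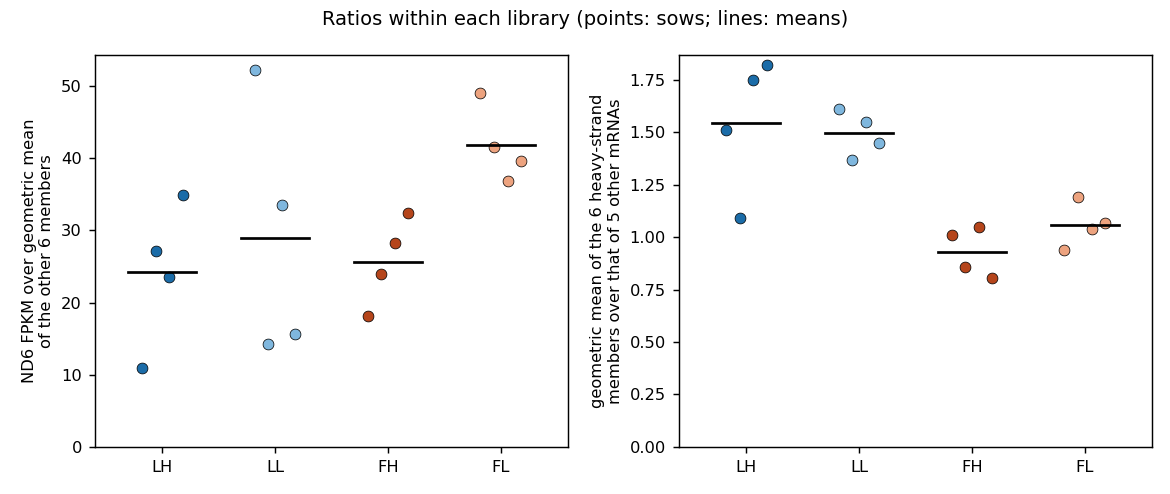
Left, ND6 FPKM over the geometric mean of the other 6 members; right, the geometric mean of the 6 heavy-strand members over that of COX1, COX2, ATP6, COX3 and CYTB. Points are sows and lines are means of 4; the ND6 ratio is 36.8 or more in FL and 32.4 or less in FH, and the right-hand ratio is 1.37 or more in LL and 1.19 or less in FH and FL.

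The heavy-strand members varied together over the libraries. Pearson's r of log2(FPKM + 1) over 16 libraries lay between 0.840 and 0.986 for the 15 pairs among them (median 0.942), and between 0.624 and 0.831 for their 6 pairs with ND6. After group means were removed, the same pairs gave 0.745 to 0.975 and 0.350 to 0.764. Over the 14 libraries without LH1 and LH2 these became 0.607 to 0.945 and 0.018 to 0.615. For the 42 pairs of a member with one of the other 6 mitochondrial mRNAs r ran from 0.350 to 0.966. All these transcripts share their libraries and the FPKM denominator, and r is given as a description.

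**Figure D4:**
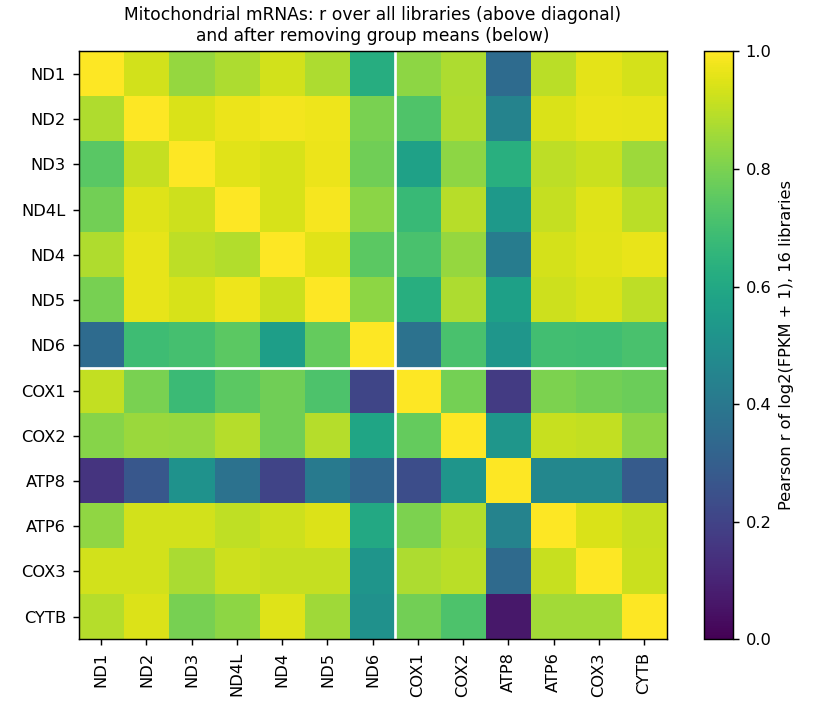
Pearson's r of log2(FPKM + 1) between the 13 mitochondrial mRNAs over 16 libraries, above the diagonal as measured and below it after group means were removed. The block of ND1 to ND5 has r of 0.840 or more above the diagonal, and the row and column of ND6 and of ATP8 are darker. Above the diagonal COX1 is darker too, with r of 0.571 (ND3) to 0.831 (ND1) against ND1 to ND5.

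Among the 1524 other transcripts with at least 0.5 FPKM in every library, 3 were taken as most like the mean profile of the members. TMEM63A (ENSSSCT00000011876), which encodes a mechanosensitive ion channel, had r = 0.929, with mean FPKM of 855 in LL, 288 in LH, 171 in FH and 129 in FL. TCTN1 (ENSSSCT00000010769), which encodes a protein of the ciliary transition zone, had r = 0.916, and ENSSSCT00000026862, which was paired with no symbol, r = 0.914. By the same measure 8 mitochondrial mRNAs ranked above TMEM63A, while ND1 ranked 13th, ND6 35th and COX1 112th. Of these 8, ND5, ND2, ND4L, ND4 and ND3 are themselves part of the mean profile, which raises their r, while COX3, ATP6 and CYTB are not.

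Few nuclear partners of complex I could be followed, as 3847 of the 27370 transcripts were paired with a symbol. Of 7 transcripts for nuclear complex I subunits and assembly factors, 4 were abundant enough to be tested in each comparison, and none was called in limma or had an unadjusted p under 0.05 in any of the 6. In FL vs. LL the log2 fold changes of these 4 were 2.18 ± 1.21 for ACAD9, an assembly factor, 0.70 ± 1.01 for FOXRED1, another assembly factor, 0.63 ± 1.16 for the subunit NDUFA1 and 0.14 ± 0.85 for the assembly factor NDUFAF6. NDUFA10, NDUFB2 and NDUFV1 were listed at 0 in 13, 14 and 15 of 16 libraries. The levels were low, NDUFA1 having mean FPKM of 35.8 in FH, 21.0 in FL, 13.5 in LH and 11.3 in LL.

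Of 4 transcripts for nuclear subunits of complexes II to V, 2 were tested in FL vs. LL and both were called there, in opposite directions. Of all 11027 transcripts tested in that comparison, 1747 were called higher and 217 lower. ATP5S, a coupling factor of ATP synthase, was higher in FL (1.5 ± 0.53, adjusted p = 0.142) and ATP5F1, a subunit of its stalk, lower (-1.98 ± 0.79, adjusted p = 0.186), the latter being listed at 0 in 12 libraries. No transcript of this list was called in the other 5 comparisons. Of 5 transcripts for mitochondrial transcription and RNA handling, 3 were tested in FL vs. LL and none was called in any of the 6 comparisons or had an unadjusted p under 0.05. MTERF2, a factor of the mitochondrial transcription termination family, had -0.39 ± 0.61 in FL vs. LL and -1.17 ± 0.63 in LH vs. LL, and ESRRA, a nuclear receptor that drives mitochondrial genes, 0.05 ± 0.38 and -0.21 ± 0.40.

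Other measures also differed between the groups, not all of them in the way the members did. The luteal markers that could be paired were PTGFR, the receptor through which prostaglandin F2α acts on the corpus luteum, SCARB1, which takes up cholesterol, and FDXR, which was listed at 0 in 15 libraries. PTGFR was 5.74 to 23.1 FPKM in LL, 1.2 to 3.29 in LH, 0 to 8.22 in FH and 0 in all 4 FL libraries, and was lower in FL than in LL (adjusted p = 0.0260). SCARB1 had -1.78 ± 0.98 in the same comparison (unadjusted p = 0.0863) and was listed at 0 in 9 libraries. In limma PTGFR was also called lower in LH vs. LL (-2.24 ± 0.78, unadjusted p = 0.0136, adjusted p = 0.425). It was called in the interaction too (-3.71 ± 1.16, unadjusted p = 0.00453, adjusted p = 0.489). Of all transcripts, 2.31% and 1.88% were called lower in these comparisons. SCARB1 had -1.52 ± 1.09 and -1.22 ± 1.39 there and was not called. In FH vs. LH, where all members were negative, PTGFR had -0.07 ± 0.82 and SCARB1 -0.56 ± 0.98. Summed, the 3 luteal markers came to 5.74 to 38.5 FPKM in the LL libraries, 1.2 to 7.21 in LH, 0 to 10.18 in FH and 0 to 5.91 in FL. The part of luteal tissue in the differences of the members was not tested.

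For other cell types, COL3A1, a fibrillar collagen of stroma, was lower in FL than in LL (-1.92 ± 0.71, adjusted p = 0.162) and the macrophage marker CD68 (ENSSSCT00000019540) higher (1.81 ± 0.85, adjusted p = 0.257), both called by the study's threshold only. By that threshold 1747 of all 11027 transcripts tested were called higher in FL and 217 lower. A second CD68 transcript (ENSSSCT00000032904) had -0.01 ± 1.15 and DES 0.27 ± 0.93, and neither was called. The granulosa marker FOXL2 was listed at 0 in 11 libraries, the oocyte marker GDF9 in 10, the endothelial marker PECAM1 in 14, the muscle marker DES in 7, and the 2 transcripts of the blood marker ALAS2 in 15 and 16. No theca marker could be paired.

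The number of transcripts with at least 0.5 FPKM tended to be low where the members were high. It was 4440 to 6081 in LL, 4622 to 8132 in LH, 6899 to 9194 in FH and 7215 to 9660 in FL. Within LH the library with the fewest, LH1 with 4622, had 7.94% of its fragments in the 5 longer members, and the library with the most, LH2 with 8132, had 1.62%. The shares were 7.34% to 14.1% in LL, 2.06% to 5.43% in FH and 3.46% to 4.67% in FL. The fragment-length term was 233 to 269 nt in LL and 216 to 228 nt in FL, without overlap, against 208 to 263 nt in LH and 226 to 259 nt in FH. Of the members, ND3 (log2 fold change -2.42 in FL vs. LL) and ND4L (-1.70) depend most on this term. What these library measures contribute to the differences of the members was not tested.

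**Figure D5:**
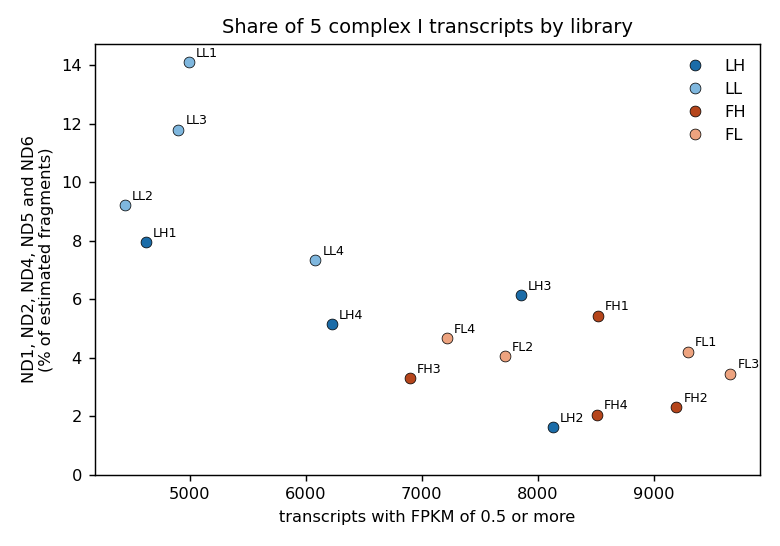
Share of estimated fragments taken by ND1, ND2, ND4, ND5 and ND6 against the number of transcripts with at least 0.5 FPKM, 1 point per library. The 4 LL libraries and LH1 have at most 6081 such transcripts and 7.34% or more of their fragments in these members; every library with 6226 or more has 6.13% or less.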

How the data were processed

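RNA from the ovaries of 16 sows was measured, grouped and numbered as the sample titles give it. In the study's methods, rRNA was depleted, strand-specific libraries were sequenced as pairs, the reference was Sscrofa10.2, and RSEM gave the level of each transcript. The submitters' processing notes name HISAT2 2.0.1 and StringTie 1.0.4 without saying which table they made. The authors deposited 1 table of FPKM values with transcript lengths. As FPKM is scaled within a library, a rise of the abundant mitochondrial RNAs lowers every other value.

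The members and gene lists were chosen with earlier results of these data known. Members were kept where the deposited length was within 2 nt of the RefSeq gene. ND2 is farther than that from the rounded length in the rule that named it, and was kept. Names of nuclear transcripts come from the study's supplementary pairing of transcripts with genes, of which only part was at hand. The 3 most alike transcripts were those with the highest Pearson's r to the mean log2(FPKM + 1) of the members, among transcripts other than the 13 mitochondrial mRNAs with at least 0.5 FPKM in all 16 libraries. From each nuclear list at most 6 transcripts were named, those with the smallest p.

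Fragments per library were estimated from transcripts longer than 1500 nt, by finding the fragment-length term at which low FPKM values fall on whole fragments. Of the values up to 10 fragments, 91.9% to 94.0% lay within 0.05 of a whole number. The estimates cover counting error only.

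log2(FPKM + 1) was tested in limma 3.58.1 (R 4.3.3), with a mean-variance trend and two-sided p. Adjustment was by Benjamini-Hochberg over all transcripts with at least 0.5 FPKM in at least 4 libraries of the fit. The comparisons of fecundity within a phase were fitted on their own libraries, and the others on all 16 with 1 shared spread. Fold changes on this scale understate changes of low transcripts. The fit was tested on simulated data with 200 changed transcripts. No 2 libraries were identical. Descriptions used numpy 2.4.6 and pandas 2.3.3 in Python 3.11.15, and matplotlib 3.10.9 drew the figures. The alternatives were other pseudocounts, filters, scalings, variance models, a replicate block and fits without single libraries. The long non-coding transcripts and small RNAs were not analysed here.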

Additional observations from a re-analysis of the deposited data

Results flagged for a closer look

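In groups of 4, a single sow was taken as far from the others where its gap to the nearest value exceeded Dixon's critical value for 4 samples, as a share of the group's range. Of 32 sets of group values examined (7 members and the ND6 ratio in 4 groups), 1 was flagged: ND6 in LH, where LH2 had 32444 FPKM and the other 3 libraries 116796 to 126084. Chance flags about 1 in 20 groups. Without LH2, the log2 fold change of ND6 in LH vs. LL was -0.85, against -1.33 with all libraries, and it was the value nearest to 0 of the -1.55 to -0.85 found when any 1 library was left out. No interaction of fecundity with phase passed an adjusted p of 0.05 for any member.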

How the results depend on the processing

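The 7 calls of FL vs. LL stayed at 6 or 7 under all alternatives. Beside 1 call in LH vs. LL, there were 5 with no filter, 2 with median-ratio scaling, 3 with scaling without the mitochondrial mRNAs, 0 with no variance trend, 0 with the replicate block, 2 with library weights, 6 with all 16 libraries in one fit, and 3 without LH1 and LH2. Beside 1 in FH vs. LH, there were 0 with no filter, 2 with median-ratio scaling, 0 with quantile normalization, 0 with no variance trend and 0 with only the 2 groups fitted. Beside 5 for the phase mean, quantile normalization gave 2, median-ratio scaling 7 and leaving out LH1 and LH2 6. Beside 2 for the interaction, no variance trend gave 0. The interaction count was 3 with pseudocount 0.1, with median-ratio scaling, with scaling without the mitochondrial mRNAs, and without LH1 and LH2. Leaving out 1 library gave 0 to 6 in LH vs. LL, 0 to 5 in FH vs. LH, 6 to 7 in FL vs. LL, 3 to 7 for the phase mean, 0 to 5 for the interaction and 0 in FH vs. FL, which also had 0 under every other setting. The adjusted calls of FL vs. LL, 3 as reported, ran from 0 to 7: they were 0 with no filter and with no variance trend. Those of the phase mean, 1 as reported, were 6 with median-ratio scaling, 4 with library weights, 2 with the replicate block, 6 without LH1 and LH2, and 0 with no filter, quantile normalization or no variance trend.

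Quantile normalization gave ND6 0.00 in FL vs. LL and 0.34 for the interaction, since ND6 ranked first or second in every library and this method gives equal ranks equal values; it gave ND4L -0.14 in FH vs. FL. ND1 in FH vs. LH was 0.07 without LH1 and LH2 together. Leaving out 1 library gave ND1 -0.62 to 0.35 there and ND2 -1.08 to 0.08, both highest without LH1. In FH vs. FL, leaving out 1 library gave ND1 -0.13 to 0.40, ND2 -0.15 to 0.52, ND3 -0.44 to 0.48, ND4L -0.43 to 0.29, ND4 -0.10 to 0.43 and ND5 -0.34 to 0.28, each lowest without FH1. Leaving out FH3 gave ND3 -0.07 and ND5 -0.08, and leaving out FL3 gave ND4L -0.13 and ND5 -0.10. Of 1001 recomputed values of single members, 894 kept direction and side of the threshold. The log2 ratio of ND6 to the sum of the other 6 members was 2.69 in FL, 1.97 in FH, 1.94 in LL and 1.73 in LH, lower by construction. Apart from this and from the rank effect on ND6, the cause of these changes was not tested.

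Scaling moved all transcripts. The median log2 fold change of FL vs. LL, 0.76, was 0.56 with median-ratio scaling and 0.18 with quantile normalization, and the share of higher calls, 89.0%, became 76.2% and 58.4%; for LH vs. LL 70.0% became 51.0% with quantile normalization, for FH vs. LH 84.5% became 64.3%, for the phase mean 91.4% became 62.4%, and for the interaction 73.4% became 58.0%. Calls over all transcripts went from 1964 to 1283 in FL vs. LL and from 1892 to 1000 for the phase mean with quantile normalization, from 387 to 651 in LH vs. LL and from 366 to 651 in FH vs. FL with all libraries in one fit, and from 781 to 424 in FH vs. LH with only the 2 groups. Within-group deviations of same-numbered libraries correlated at -0.067 to 0.162. These values were not set against those of differently numbered libraries, so they do not settle whether the numbers pair the sows. The replicate block changed no other count of called members. Several nuclear partners were listed at 0 in most libraries, and differences among them were not detectable.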
